A study of Homo sapiens with 40 samples.

Results

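The subject is gene expression in H1 human embryonic stem cells that carried a NANOG-directed short hairpin RNA (shRNA), on days 4 to 6 of a time course. The arrays were chosen by their labels alone: the 3 H1 arrays with NANOG shRNA on days 4, 5 and 6 and the 3 H1 arrays with control virus on the same days, 6 of 40 samples in all. H1 is an established line from 1 embryo. Cells of both groups grew on a Matrigel coating in mTeSR medium and received a lentivirus with polybrene, shNANOG in the first group and the control virus labelled H1P in the second. The other H1 arms, transduced with a virus against OCT4 or SOX2, supplied 3 further arrays each of days 4 to 6 for comparison. Total RNA was labelled with biotin and hybridised to 1-colour Illumina bead arrays.

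NANOG is a homeodomain transcription factor of the inner cell mass and of cultured pluripotent cells. It binds many regulatory regions together with OCT4 (gene POU5F1) and SOX2, among them their own genes, and holds pluripotent cells in a self-renewing state. In human embryonic stem cells, activin and NODAL signalling through SMAD proteins maintains NANOG transcription, and differentiating cells of the anterior neural plate switch on a set of homeobox genes such as PAX6, SIX3 and LHX2.

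Each arm was 1 time course with 1 array a day, so the 3 days stood in for replicates, and a p-value measures the scatter of days about their mean and not the spread between cultures. That scatter was estimated jointly over the 28 H1 arrays of days 0 to 6 in 4 arms. Drift by day in the OCT4 and SOX2 shRNA arms therefore also enters the p-values. The number of arrays limits the precision. Levels are log2 intensities after background correction, and a level of 6.58 marks background, taken from olfactory receptor probes as examples of genes not expressed here. The 6 arrays had medians of 135.66 to 135.686 deposited intensity units, with 41.0% of probes above background on each. The deposited columns share nearly the same set of values, which fixes both figures, so they cannot show whether the arrays were of like quality. Median correlations with the other 27 H1 arrays of days 0 to 6 were 0.970 to 0.981 for the NANOG shRNA arrays, lowest on day 6, against 0.984 to 0.986 for the control arrays. Of 13411 genes tested with limma, a gene was called when its Benjamini-Hochberg adjusted p was under 0.05. The fit was repeated 9 times, each time leaving out 1 day in every arm or 1 of the 6 arrays, and once with the day as a block, which pairs the arrays of 1 day. All differences are log2 and are NANOG shRNA minus control unless stated.

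NANOG itself was examined first. It stood at 6.91, 6.60 and 6.48 on days 4, 5 and 6 with NANOG shRNA, against 8.96, 8.93 and 8.42 in control cells. The groups did not overlap, and the last NANOG shRNA array lay below the background level. The means were 6.66 ± 0.22 with NANOG shRNA and 8.77 ± 0.30 in control (SD, n = 3 each), a difference of -2.11 ± 0.22 (SE; adjusted p = 3.4e-07, limma), or 23.2% of the control intensity. Since 2 of 3 arrays were barely above background, this percentage may not show how far the transcript fell. A second NANOG probe gave -1.96. An exact permutation test over arrays, two-sided, gave p = 0.1, the smallest possible with 3 against 3 (0.15 after adjustment over 3 genes). The NANOG shRNA arm was already at 7.80 on day 0, against 8.91 in control.

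POU5F1, the gene of OCT4, also fell. It was at 12.00, 11.61 and 10.95 with NANOG shRNA, against 12.57, 12.63 and 12.87 in control cells, with no overlap and a gap that opened each day. The difference was -1.17 ± 0.28 (SE; adjusted p = 0.00533, limma; exact permutation p = 0.1). The call was lost without day 5 (-1.25) or day 6 (-0.79) in every arm and when the NANOG shRNA array of day 6 was left out, and a second POU5F1 probe gave -0.36. SOX2 was at 12.17, 12.37 and 12.21 with NANOG shRNA, against 11.82, 12.14 and 12.40 in control cells. The SOX2 groups overlapped, with a difference of 0.13 ± 0.30 (SE; exact permutation p = 0.6).

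**Figure D1:**
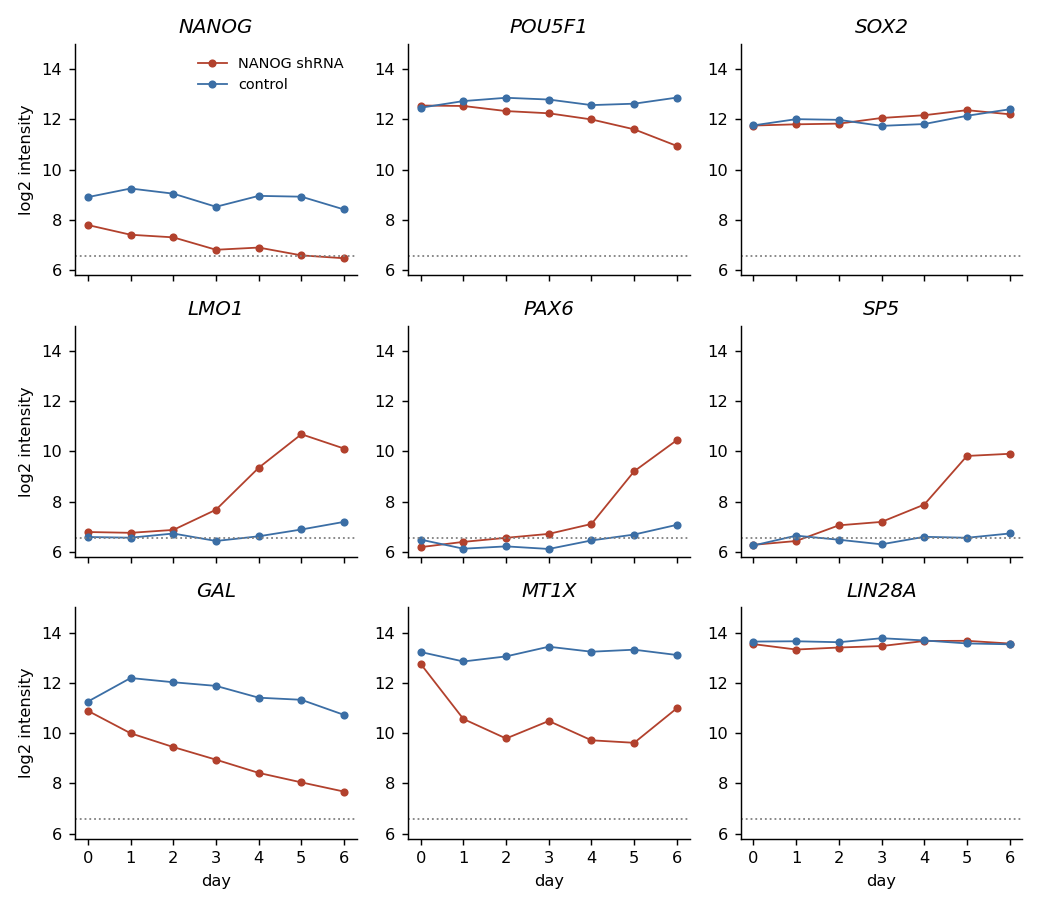
Levels by day (x axis, days 0 to 6) on a log2 intensity scale (y axis) for 9 genes, with NANOG shRNA in red and control in blue, 1 array per point. The dotted line is the background level of 6.58. NANOG is apart from day 0 and GAL from day 1 on, MT1X drops on day 1, LMO1, PAX6 and SP5 rise well above the background by day 5, POU5F1 separates gradually, and SOX2 and LIN28A stay close.

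Across the genome, 2068 of 13411 genes were called (15.4%), 1038 higher (7.74%) and 1030 lower (7.68%) with NANOG shRNA. Counts of calls in the gene lists below stand beside these shares, and a list near them has no more calls than all genes have. Differences of at least 2-fold were found in 143 higher calls (1.07%) and 156 lower calls (1.16%). The median difference over all genes was -0.000390, a value that the common scale of the deposited arrays largely sets. The count was 811 without day 5 in every arm, 1248 without day 6 in every arm and 1325 without the NANOG shRNA array of day 6. With the day as a block it was 2619. The 3 NANOG shRNA arrays lay above all 3 control arrays for 2201 genes (16.4%) and below them for 2239 (16.7%). The genes that rose at least 2-fold had a median control level of 7.64, near the 7.97 of all genes, whereas those that fell at least 2-fold had a median control level of 9.69. With NANOG shRNA the medians were 9.24 for the rises and 8.18 for the falls. A gene near background has little room to fall, so the high control level of the falls follows in part from that floor.

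**Figure D2:**
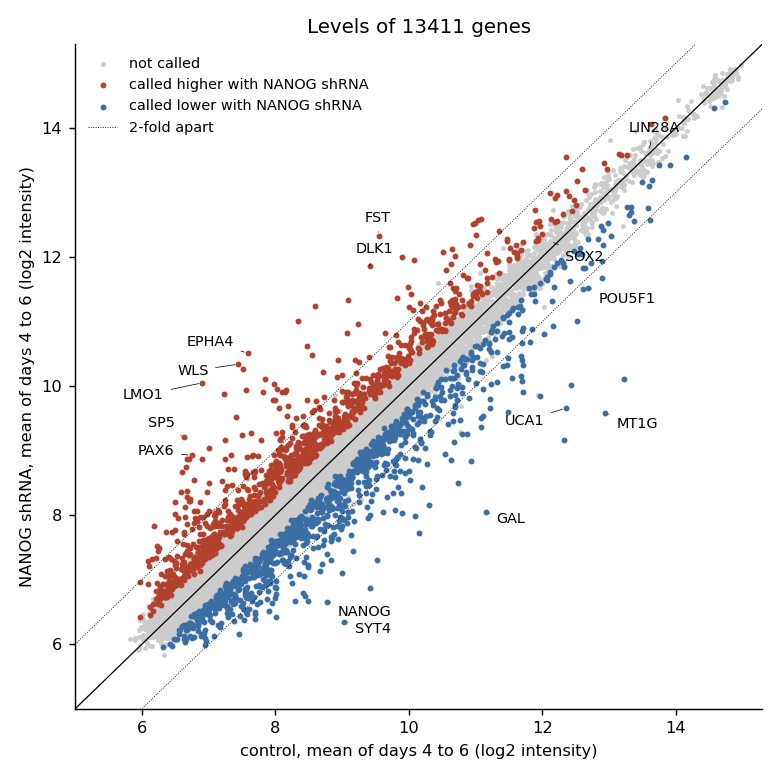
Mean log2 intensity over days 4 to 6 with NANOG shRNA (y axis) against control (x axis) for 13411 genes; red points are called higher, blue points lower and grey points not called. Dotted lines mark 2-fold. MT1G, UCA1 and GAL lie at bright control levels; 79.0% of the rises of at least 2-fold have a control level below 9, against 68.2% of all genes.

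The difference from control widened over the time course. Taking 1 array against 1 array, with no test, genes at least 2-fold higher with NANOG shRNA numbered 0, 19, 38, 110, 104, 185 and 250 on days 0 to 6. Those at least 2-fold lower numbered 2, 25, 65, 94, 130, 208 and 249. Of the 143 genes called at least 2-fold higher, 108 differed more on day 6 than on day 4 and 74 widened with each day, with median differences of 1.07, 1.51 and 1.60 on days 4, 5 and 6. Of the 156 called at least 2-fold lower, 113 differed more on day 6 and 77 widened with each day, with medians of -1.10, -1.39 and -1.53. Days 0 and 1 had a median difference of 0.16 in the first set and -0.22 in the second. The 3 days thus hold a trend as well as scatter.

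**Figure D3:**
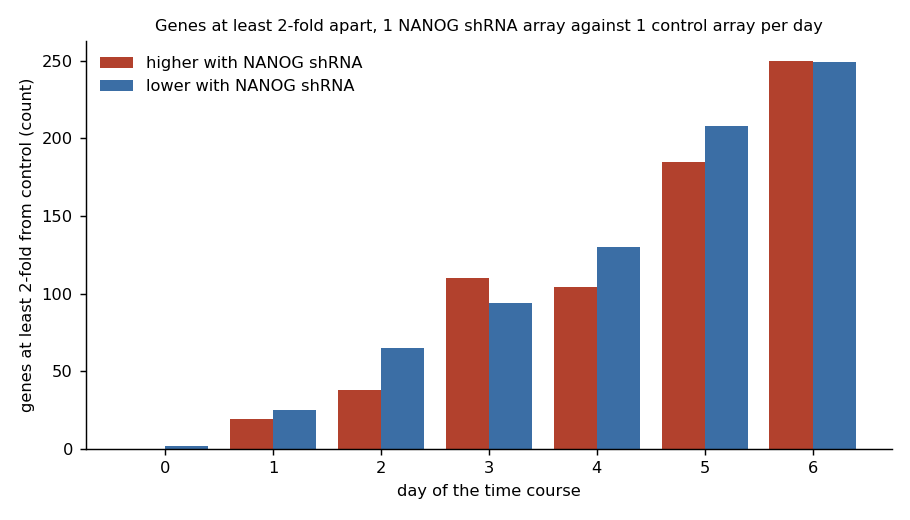
Number of genes (y axis) at least 2-fold higher (red) or lower (blue) with NANOG shRNA than in control on each day (x axis), 1 array against 1 array, with no test. Both counts are close to 0 on day 0 and reach 250 and 249 on day 6.

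The largest rises mixed regulators of the early neural plate with components of the WNT, activin, ephrin and ERK pathways. LMO1, a LIM-only transcriptional cofactor expressed in the developing brain, was at 9.35, 10.68 and 10.11 with NANOG shRNA, against 6.63, 6.90 and 7.20 in control cells. That is a difference of 3.14 ± 0.25 (SE; adjusted p = 1.3e-08). EPHA4, a receptor for ephrins, was at 9.65, 10.98 and 10.90 with NANOG shRNA, against 7.42, 7.34 and 8.02, a difference of 2.92 ± 0.23 (SE; adjusted p = 1.3e-08). WLS, which carries WNT ligands to the cell surface, was at 9.04, 10.62 and 11.36 with NANOG shRNA, against 7.38, 7.48 and 7.48. Its difference was 2.89 ± 0.41 (SE; adjusted p = 2.3e-05), and its 4 other passing probes gave 0.68 to 2.04. FST (follistatin) encodes a secreted protein that binds and blocks activin. Its levels were 11.43, 12.55 and 13.00 with NANOG shRNA, against 9.19, 9.50 and 9.98 in control cells, a difference of 2.77 ± 0.32 (SE; adjusted p = 1.8e-06).

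SLIT2, a secreted guidance ligand, rose early and stayed level. It was at 10.09, 10.34 and 10.35 with NANOG shRNA, against 7.71, 7.67 and 7.19 in control cells, a difference of 2.74. FZD2, a WNT receptor, was at 10.88, 11.46 and 11.37 with NANOG shRNA, against 8.66, 8.68 and 8.43. Its difference of 2.65 ± 0.15 had the smallest SE of the 15 largest rises (adjusted p = 4.0e-11). TMEM88, a membrane protein that dampens WNT signalling, was at 9.40, 9.90 and 10.30 with NANOG shRNA, against 7.18, 7.21 and 7.29. SP5, a zinc finger factor induced by WNT signals, was at 7.89, 9.82 and 9.91 with NANOG shRNA, against 6.61, 6.57 and 6.74, where 2 of 3 control arrays were above background. DLK1, an imprinted gene for a Notch-related membrane ligand, climbed steeply in the NANOG shRNA arm, with 10.22, 12.36 and 13.00 against 9.36, 9.50 and 9.39 in control cells. DUSP6, the phosphatase that switches off ERK, was steady in the NANOG shRNA arm, at 11.26, 11.30 and 11.45, against 9.72, 9.36 and 8.21 in control cells, so that its gap of 2.24 widened while control levels declined. The remaining genes of the 15 were PAMR1 (2.67), MAPK10 (2.38), which encodes the neural JNK kinase JNK3, ENC1 (2.26), a kelch protein of the nervous system, LHX5 (2.18) and PAX6 (2.18). None of the 15 lost its call in the 9 repeats, although the PAX6 difference was 1.42 without the NANOG shRNA array of day 6.

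The largest falls were led by metallothioneins, described further below, and by neuropeptide and vesicle genes. GAL, the gene of the neuropeptide galanin, was at 8.42, 8.04 and 7.68 with NANOG shRNA, against 11.41, 11.33 and 10.73 in control cells, a difference of -3.11 ± 0.34 (SE; adjusted p = 6.9e-07). UCA1, a long non-coding RNA, was at 10.26, 9.61 and 9.10 with NANOG shRNA, against 12.30, 12.38 and 12.38, a difference of -2.70. SYT4, a synaptotagmin of secretory vesicles, was not above background on any NANOG shRNA array and stood at 9.27, 8.89 and 8.95 in control cells. It was therefore at least 5.50-fold lower with NANOG shRNA (adjusted p = 4.8e-09), a bound that sets the dim arrays at the higher of the background level and their own value. HEY2, a transcriptional repressor of the Notch pathway, was at 6.81, 6.92 and 6.86 with NANOG shRNA, against 9.53, 9.69 and 9.05 in control cells, a difference of -2.56 ± 0.20 (SE; adjusted p = 1.3e-08). HEY2 was thus close to background on all 3 days with NANOG shRNA.

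The other large falls included enzymes and small GTPases. PLAAT3, a phospholipid-modifying enzyme, was at 10.73, 10.03 and 9.27 with NANOG shRNA, against 12.56, 12.41 and 12.34, a difference of -2.42, though a second PLAAT3 probe gave -0.11. CFAP95 (-2.42), VASH2 (-2.23), which encodes an enzyme that trims tubulin, RAB20 (-2.22), NPTX1 (-2.14) and RASL11B (-2.11) followed. NPTX1, a secreted neuronal pentraxin, gave -0.78 and -0.81 with further passing probes. Of the 15 largest falls, the call was lost in at least 1 of the 9 repeats only for the 4 metallothioneins.

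**Figure D4:**
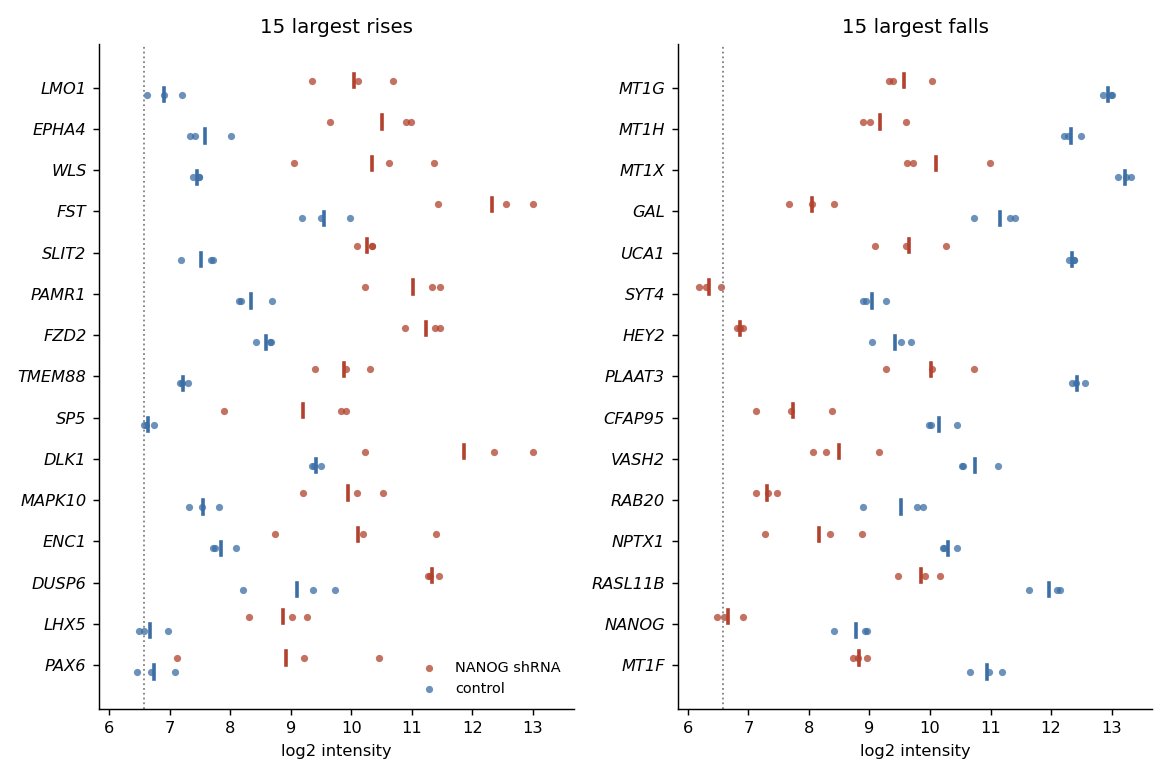
Log2 intensities (x axis) of the 15 largest rises (left panel) and 15 largest falls (right panel), with the 3 NANOG shRNA arrays in red above the 3 control arrays in blue for each gene; ticks are means and the dotted line is the background level. No gene shown has overlapping groups, and PAX6, DLK1 and ENC1 have the widest spread among the NANOG shRNA arrays of the rises.

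Of 33 listed pluripotency regulators 29 were measured, and 13 fell while none rose, with a median difference of -0.40. That number was 8 without day 5 in every arm. UTF1, a chromatin-associated factor of undifferentiated cells, was at 6.79, 6.58 and 6.62 with NANOG shRNA, against 8.63, 8.77 and 8.06 in control cells, a difference of -1.82 ± 0.21 (SE; adjusted p = 1.5e-06). DPPA2, a DNA-binding protein of early embryos and germ cells, was at 7.08, 6.84 and 6.47 with NANOG shRNA, against 8.52, 8.37 and 8.35, a difference of -1.62. TERF1, a telomere-binding protein abundant in pluripotent cells, was at 10.95, 10.23 and 9.81 with NANOG shRNA, against 11.81, 11.70 and 11.61, a difference of -1.38. By contrast LIN28A, an RNA-binding protein of pluripotent cells, was at 13.66, 13.67 and 13.56 with NANOG shRNA, against 13.69, 13.57 and 13.53 in control cells, a difference of 0.04. The regulators thus did not move as a block: 16 of the 29 were not called.

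Surface and enzyme genes typical of human embryonic stem cells also leaned lower. Of 26 measured, 11 fell and none rose, with a median of -0.37; 6 fell without day 5 in every arm, and 1 rose without day 6 in every arm or with the day as a block. GRPR, the receptor of gastrin-releasing peptide, was at 8.07, 7.70 and 8.20 with NANOG shRNA, against 10.40, 10.06 and 9.84 in control cells, a difference of -2.11. PIM2, a serine/threonine kinase, differed by -1.89. IDO1, a tryptophan-degrading enzyme, was at 9.07, 7.96 and 7.08 with NANOG shRNA, against 9.76, 9.90 and 10.02, a difference of -1.85 that grew with each day. CNMD, the gene of chondromodulin, differed by -1.80, and by -1.19 without day 6 in every arm. EPCAM, an epithelial adhesion molecule, differed by -0.96, a call lost without day 5 in every arm (-0.93), with a value of -0.63 without the NANOG shRNA array of day 6. PODXL, a sialomucin that carries stem cell epitopes, differed by -0.49 (adjusted p = 0.0468), and its call was lost in 7 of the 9 repeats (-0.56 to -0.28). DNMT3B, the DNA methyltransferase of pluripotent cells, was at 12.78, 12.50 and 12.14 with NANOG shRNA, against 13.10, 13.18 and 13.36, and was not called (-0.74, adjusted p = 0.0835), but was with the day as a block (adjusted p = 0.0434) and without day 4 in every arm.

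Transcription factors of the forebrain and eye field rose together. Of 29 listed genes 19 passed the filter on dim probes, and 14 of these rose while none fell, with a median of 1.00 (0.65 with dim members at their bounds). A gene dim in the other arms, such as LHX2, could pass the filter through the NANOG shRNA arrays alone. That count and median are therefore set in part by the filter. LHX5 was at 8.30, 9.01 and 9.27 with NANOG shRNA, against 6.49, 6.58 and 6.96 in control cells. SIX3, a homeobox regulator of forebrain and eye, was at 8.13, 9.16 and 8.73 with NANOG shRNA, against 6.52, 6.43 and 6.85, with 1 of 3 control arrays above background. FEZF1, a zinc finger repressor of the anterior neural plate, was at 8.54, 9.37 and 8.69 with NANOG shRNA, against 6.61, 6.67 and 7.42. These groups did not overlap, and the differences were 2.18, 2.07 and 1.97. PAX6 was at 7.12, 9.21 and 10.45 with NANOG shRNA, against 6.46, 6.70 and 7.08, so that most of its gap was present only on days 5 and 6. LHX2, a LIM homeobox gene of forebrain and optic vesicle, was not above background in control cells and was at least 2.72-fold higher with NANOG shRNA. OTX2, a homeobox gene of the epiblast and of the anterior brain, was at 10.16, 10.05 and 9.53 with NANOG shRNA, against 7.78, 7.91 and 8.62, a gap of 1.81 that narrowed by day 6. HESX1, a homeobox repressor of the anterior neural plate, differed by 1.79.

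Regulators of more posterior neural regions were mostly dim. Only 9 of 26 listed passed the filter, 6 of them higher and none lower, with a median of 0.96 (0.80 at bounds). Here too a gene dim in the other arms, such as LMX1A, could pass through the NANOG shRNA arrays alone. The count and median therefore follow in part from the filter. IRX3, an Iroquois homeobox gene, was at 10.39, 9.89 and 9.60 with NANOG shRNA, against 7.93, 7.97 and 8.15 in control cells, a difference of 1.94. GBX2 was at least 1.89-fold higher and LMX1A at least 1.67-fold higher, since neither was above background in control cells, and the fitted GBX2 difference of 1.24 was 0.79 without day 6 in every arm. IRX5 differed by 1.16, a call lost without day 4 (0.80) or day 5 (1.02) in every arm, and its second probe gave 0.42. Of 35 listed HOX, CDX, MEIS and PBX genes, which mark trunk identity and its cofactors, 17 were measured and 2 rose, with a list median of 0.08. These were MEIS2, at least 1.56-fold higher, and PBX2 (0.48). The MEIS2 call was lost without day 5 or 6 in every arm or the NANOG shRNA array of day 6 (0.86 to 0.98), the PBX2 call without day 5 or 6 in every arm (0.40 to 0.50), and a further MEIS2 probe gave -0.04.

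Of 24 measured neural progenitor genes 10 rose and 2 fell, with a median of 0.48, and 6 rose without day 5 in every arm. GLI3, a transcription factor of the Hedgehog pathway, was at 8.50, 9.47 and 9.75 with NANOG shRNA, against 7.32, 7.64 and 7.56 in control cells, a difference of 1.73. SOX11 differed by 1.55, although a second passing probe gave -0.00. FABP7, a fatty acid binding protein of radial glia, differed by 1.47, a call lost without day 5 or 6 in every arm, the NANOG shRNA array of day 6 or the control array of day 5 (1.11 to 1.46). The 2 that fell were SOX4 (-0.94) and CNTN1, an adhesion molecule of axons, at least 1.83-fold lower with NANOG shRNA. NES, the gene of the progenitor filament nestin, was at 10.82, 10.51 and 10.34 with NANOG shRNA, against 10.61, 10.89 and 10.71, and was not called (-0.18).

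Genes of differentiating neurons did not share a direction: of 16 measured, 3 rose and 4 fell, with a median of -0.19. MAP2, a dendritic microtubule protein, was at 8.42, 8.67 and 8.49 with NANOG shRNA, against 7.38, 7.13 and 7.09 in control cells, a difference of 1.32, while further passing probes gave 0.26 and 1.66. RTN1, a reticulon of neurons, differed by 1.12, with 0.06 and 0.42 from further probes. The third, POU4F1, at least 1.49-fold higher, lost its call in 7 of the 9 repeats, its fitted difference being 0.32 when the NANOG shRNA array of day 6 was left out and 1.16 when that of day 4 was. Among the 4 that fell, ONECUT1 differed by -0.97, INA by -0.73, GAP43 by -0.64 and ONECUT2 by -0.57. The count of falls was 2 without day 4, day 5 or day 6 in every arm. The calls lost were those of ONECUT2 without day 4 (-0.51), INA without days 5 or 6, the NANOG shRNA arrays of those days or the control array of day 4 (-0.73 to -0.66), and GAP43 without any 1 of the days (-0.72 to -0.54). TUBB3, the tubulin of young neurons, was at 11.45, 11.26 and 10.90 with NANOG shRNA, against 11.48, 11.55 and 11.16 (-0.19, not called), and DCX was not above background on any NANOG shRNA array. STMN2, a further neuron marker, leaned higher (0.46, with 0.48 from a second probe). It was not called, but was with the day as a block and without the NANOG shRNA array of day 4. ELAVL4 had no probe that passed the filter. Summed over the 16 genes, linear levels were 4959 to 5566 with NANOG shRNA and 5226 to 6303 in control cells.

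Markers of other lineages are given beside the 15.4% of all genes that were called. Of 14 measured mesendoderm and endoderm genes, FLRT3 (1.70), a membrane protein of FGF and NODAL signalling, and MESP1 (0.62) rose. FOXA3 (-0.36) fell, a call lost without day 5 or 6 in every arm or any of the 4 arrays of those days (-0.36 to -0.30). Of 20 measured mesoderm and heart genes, PDGFRB rose (0.80, not called without day 6 in every arm, 0.53) and KDR fell (-0.51, not called in 5 of the 9 repeats, -0.49 to -0.42, which left out day 4 or 5 in every arm, a control array of those days or the NANOG shRNA array of day 5). Of 17 measured trophoblast and amnion genes, TFAP2A (1.24) and CCKBR (1.10), a gastrin receptor, rose. The TFAP2A call was lost without day 5 or 6 in every arm or the NANOG shRNA array of day 6 (0.98 to 1.19), and its 4 other probes gave 0.05 to 0.52. CGA and GCM1, which define placental cells, were below background on all 6 arrays. The further trophoblast markers CGB3 (0.22) and KRT7 (0.37) leaned higher and were not called, with NANOG shRNA means of 6.58 and 6.83, near background. KRT7 was called when only NANOG shRNA and control arrays of days 0 to 6 were fitted. Among 16 measured neural crest and placode genes, SOX9, a regulator of crest, cartilage and neural progenitors, was at 9.03, 9.54 and 9.99 with NANOG shRNA, against 7.27, 7.47 and 7.47 in control cells, a difference of 2.12. SOX8 fell (-1.12). Without day 4 in every arm 3 crest and placode genes rose and 2 fell; the rises were 2 when the NANOG shRNA array of day 4 was left out and the falls 2 when the control array of day 6 was. With the day as a block 2 of them rose and 3 fell, and 1 trophoblast and amnion gene fell. The list medians were 0.16 for mesendoderm and endoderm, 0.00 for mesoderm and heart, 0.10 for trophoblast and amnion and 0.10 for crest and placode genes.

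WNT signalling turns on when secreted WNT ligands, released with the help of WLS, bind Frizzled (FZD) receptors. Stabilised beta-catenin then drives targets that include inhibitors of the pathway. Of 26 measured ligands, receptors and ligand-handling genes, 9 rose and none fell, with a median of 0.30, and 4 rose without day 5 in every arm. Besides WLS and FZD2, FZD3 was at 10.13, 10.46 and 10.51 with NANOG shRNA, against 9.39, 9.05 and 9.31 in control cells, a difference of 1.12. FZD5, at 8.98, 8.84 and 8.21 with NANOG shRNA against 7.42, 7.56 and 8.05, converged by day 6, and its call (1.00) was lost without day 4 (0.72) or day 5 (0.86) in every arm.

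Of 25 measured inhibitors and targets of the WNT pathway 10 rose (5 genes without day 5 in every arm) and 2 fell, with a list median of 0.17. FRZB, a secreted WNT antagonist, was at 9.64, 10.00 and 9.72 with NANOG shRNA, against 7.59, 7.76 and 8.57 in control cells, a difference of 1.82 (adjusted p = 3.2e-07). DKK1, a secreted antagonist that blocks the LRP co-receptors, was at 7.15, 8.89 and 9.04 with NANOG shRNA, against 6.56, 6.40 and 6.80, with 1 of 3 control arrays above background and a difference of 1.77. TNFRSF19, a WNT-responsive receptor, differed by 1.91, with 0.40 and 0.51 from further passing probes. The 2 that fell were KREMEN2 (-1.45), a receptor for DKK proteins whose further probe gave -0.20, and TCF7L2 (-0.57), a factor that carries beta-catenin on DNA. TCF7L2 was not called in 7 of the 9 repeats (-0.60 to -0.37), so that 1 gene fell without day 5 or 6 in every arm or any of those days' arrays or the control array of day 4.

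In the BMP pathway, whose ligands act through SMAD1, SMAD5 and SMAD8 and switch on ID genes, 7 of the 27 genes measured rose and 1 fell, for a list median of 0.22. ID3, a helix-loop-helix inhibitor, was at 12.01, 12.63 and 13.09 with NANOG shRNA, against 11.03, 10.90 and 11.18 in control cells, a difference of 1.54 ± 0.20 (SE; adjusted p = 6.9e-06). RGMA, a BMP co-receptor, differed by 1.23. MSX1, a homeobox target of BMP, was at 7.35, 8.64 and 9.65 with NANOG shRNA, against 6.67, 6.93 and 6.73, a difference of 1.77 that was not called without day 6 in every arm (1.19). ID2 (1.13) was not called without day 5 or 6 in every arm or the NANOG shRNA array of day 6 (0.92 to 1.07). Without day 5 or 6 in every arm or the NANOG shRNA array of day 6, 3 BMP pathway genes rose. BAMBI, a decoy receptor, fell (-0.99, not called without day 5 in every arm, -0.82).

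Of the 23 measured genes of the NODAL and activin branch, 3 were higher and 1 lower, and the median was 0.01; 5 were higher with the day as a block. FST is described above. INHBE, an activin subunit, was at 8.64, 8.63 and 8.65 with NANOG shRNA, against 7.62, 7.51 and 7.50 in control cells, a difference of 1.10. SMAD7, the inhibitory SMAD, differed by 0.92, with 0.15 from a further probe. GDF3, a NODAL-related ligand of pluripotent cells, was not above background with NANOG shRNA and was at least 1.42-fold lower there than in control cells.

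In the FGF and ERK pathway 4 of 31 measured genes rose and 4 fell, with a list median of -0.05. FGF2, the growth factor that sustains human embryonic stem cells, was at 8.55, 7.97 and 7.72 with NANOG shRNA, against 9.82, 9.51 and 10.03 in control cells, a difference of -1.71 ± 0.18 (SE; adjusted p = 3.6e-07). MYC was at 9.35, 9.64 and 9.63 with NANOG shRNA, against 11.43, 11.40 and 10.50, a difference of -1.57, and FGFRL1, an FGF receptor without a kinase domain, differed by -1.13. The fourth, FGF13, differed by -0.88 and was not called without day 5 or 6 in every arm or the control array of day 5 (-0.87 to -0.72). Besides DUSP6, FGFR3 (1.11), DUSP4 (1.05) and FGFR1 (0.49) rose, though a second FGFR3 probe gave 0.08. DUSP4 was 0.58 and not called without day 6 in every arm, nor without the NANOG shRNA array of day 6 (0.78). FGFR3 lost its call without day 5 in every arm, the NANOG shRNA array of day 5 or the control array of day 4 (1.03 to 1.09), and FGFR1 in 7 of the 9 repeats (0.44 to 0.52). The count of rises was 2 without day 5 or 6 in every arm, the NANOG shRNA array of day 5 or the control array of day 4.

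Notch pathway genes moved both ways, with 6 of 26 measured higher and 3 lower, with a list median of 0.10. Without day 5 in every arm 2 rose and 1 fell, and 3 rose without day 6 in every arm. HEY1, a relative of HEY2, was at 6.61, 7.61 and 9.11 with NANOG shRNA and below background in control cells. It was at least 2.30-fold higher, yet lost its call in 7 of the 9 repeats and had a fitted 0.62 without the NANOG shRNA array of day 6. Its second probe gave 0.41. MFNG, a glycosyltransferase that modifies Notch, differed by 0.78 (0.63 and not called without day 5 in every arm). With HEY2, RBPJ (-0.59), the DNA-binding partner of Notch, and DLL3 (-0.52) fell. RBPJ was not called without day 5 in every arm (-0.55), and DLL3 was not called in 6 of the 9 repeats and differed by -0.30 without day 4 and -0.80 without day 6 in every arm. For DLL3 a second probe gave -0.10.

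Of 9 measured Hedgehog genes 4 rose (list median 0.20), with GAS1 (1.64), BOC (at least 1.28-fold higher), SMO (0.52) and SCUBE3 (0.45). All 4 calls depended on single days: 0 rose without the NANOG shRNA array of day 6, 1 without day 5 or 6 in every arm, and 2 without the NANOG shRNA array of day 5 or the control array of day 4. Where a call was lost, GAS1 gave 1.29 to 1.60, BOC a fitted 0.50 to 0.59, SMO 0.40 to 0.54 and SCUBE3, lost in all 9 repeats, 0.34 to 0.55. For GAS1 a second probe gave 0.74. In the retinoic acid pathway 4 of 17 measured genes rose and 1 fell, with a list median of 0.12. CYP26A1, which degrades retinoic acid, was at 12.25, 12.40 and 11.73 with NANOG shRNA, against 10.68, 10.78 and 10.47 in control cells, a difference of 1.48. DHRS3, which limits retinoic acid synthesis, was at 8.52, 7.39 and 7.09 with NANOG shRNA, against 8.67, 8.86 and 8.98, a difference of -1.17. RARA (0.61), RXRA (0.72) and ALDH1A2 (0.64) also rose. RXRA was not called without day 5 in every arm (0.70), and ALDH1A2 in 5 of the 9 repeats (0.44 to 0.60), while without the NANOG shRNA array of day 4 it was 0.98. The rises numbered 2 without day 5 in every arm, and the falls 2 without day 4 in every arm or with the day as a block.

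Of 21 measured genes of the insulin-like growth factor system 3 rose and 2 fell, with a list median of 0.12. IGFBP3, a binding protein, was at 8.83, 8.81 and 8.13 with NANOG shRNA, against 7.45, 7.59 and 7.64 in control cells, a difference of 1.03. STC1, an inhibitor of the protease PAPPA, was at 9.57, 9.31 and 8.89 with NANOG shRNA, against 10.71, 10.66 and 11.23, a difference of -1.61, and IGFBP2 differed by -0.60. IGFBP5 (1.21) was not called in 6 of the 9 repeats (0.97 to 1.22) and PAPPA (0.84) without day 5 or 6 in every arm (0.65 to 0.75), and the count of rises was 1 without day 5 or day 6 in every arm.

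Genes of adhesion, guidance and matrix were called in both directions. Of 14 measured ephrins and ephrin receptors 4 rose and 2 fell, with a list median of 0.15. EFNB1, an ephrin ligand, was at 7.67, 8.40 and 8.69 with NANOG shRNA, against 6.76, 6.69 and 6.70 in control cells, a difference of 1.54, and EPHB1 differed by 0.75. EFNB2 (0.75) was not called in 5 of the 9 repeats, with 0.44 without day 6 in every arm. EPHA1 fell (-0.77), as did EPHB6 (-0.41), whose call was lost in 7 of the 9 repeats (-0.44 to -0.33), leaving 1 fall there. Of 37 measured SLIT, netrin and semaphorin genes (median 0.06) 6 rose, with 2 without day 6 in every arm and 3 without the NANOG shRNA array of day 6. PLXNB1, a semaphorin receptor, differed by 0.68, and SEMA3A (0.63) was not called in 7 of the 9 repeats (0.49 to 0.69). The 2 that fell were CXCL12 (-0.90), not called in 6 repeats (-0.88 to -0.68), and NRP1 (-0.57), not called without day 4 or 5 in every arm or the control array of day 4 (-0.62 to -0.42). None fell without day 5 in every arm or the control array of day 4.

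Among 23 measured cadherins, protocadherins and claudins 4 rose and 4 fell, with a list median of 0.09. CDH2 (N-cadherin), the cadherin of neural and mesenchymal cells, was at 11.51, 11.94 and 12.21 with NANOG shRNA, against 10.79, 10.50 and 10.60 in control cells, a difference of 1.26 ± 0.25 (SE). CDH6 differed by 1.62. CLDN7, a claudin of epithelial tight junctions, was at 9.56, 8.89 and 8.20 with NANOG shRNA, against 9.85, 9.96 and 10.04, a difference of -1.06 (-0.68 without day 6 in every arm). CDH10 was at least 1.25-fold higher and PCDH18 differed by 0.78; 2 rose without the control array of day 4. The CDH10 call was lost without that array, without day 4 or 6 in every arm and without the NANOG shRNA array of day 6 (a fitted 0.54 to 0.62). PCDH10 (-1.30), CDH3 (-0.84) and CLDN1 (-0.84) fell, but without day 5 in every arm 1 gene fell, with PCDH10 at -1.14 and CDH3 at -0.74. CLDN1 gave -0.79 to -0.63 where its call was lost. PCDH18 was not called in 6 of the 9 repeats and was 0.36 without day 4 and 1.19 without day 6 in every arm. ZEB2, a repressor that promotes mesenchymal and neural fates, was at least 2.24-fold higher. Of the 16 measured regulators of the epithelial to mesenchymal transition and keratins (median -0.11) it was the only rise, with 2 without day 4 in every arm, without the NANOG shRNA array of day 4 or with the day as a block. ESRP1 (-0.64) and CRB3 (-0.58) fell, neither of them called without day 5 or 6 in every arm or the NANOG shRNA array of day 6, with -0.40 for ESRP1 and -0.39 for CRB3 without that array. The falls numbered 4 without day 4 in every arm or the NANOG shRNA array of day 4, and 1 without the NANOG shRNA array of day 5 or the control array of day 4 or 5.

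Of 35 measured matrix and integrin genes 8 rose and 3 fell, with a median of 0.23. GPC3, a glypican, was at 10.84, 11.53 and 11.73 with NANOG shRNA, against 9.83, 9.72 and 9.93 in control cells, a difference of 1.55. COL2A1 (1.50), COL4A6 (1.38) and the fibronectin receptor subunit ITGA5 (1.27) followed, with 0.83 for ITGA5 without day 6 in every arm. For COL2A1 a second probe gave 0.51. VCAN (-0.90), THBS2 (-0.74) and ITGB1 (-0.49) fell. The VCAN call was lost in 3 of the 9 repeats (-0.82 to -0.66), that of THBS2 in 7 (-0.89 to -0.49) and that of ITGB1 in 2 (-0.52 to -0.43). The counts were 5 rises and no fall without day 5 in every arm, and 1 fell without day 4 in every arm or the NANOG shRNA array of day 6.

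Neuropeptide and synaptic genes, of which many are active in human embryonic stem cells, gave 9 falls and 5 rises among 31 measured, with a median of -0.23. Beside GAL, SYT4 and NPTX1, the vesicle protein gene SYP was lower (-0.72), with 1 of 3 NANOG shRNA arrays above background. CNTNAP2, a neurexin-related adhesion molecule, was at 12.18, 12.67 and 12.92 with NANOG shRNA, against 10.77, 11.04 and 11.42 in control cells, a difference of 1.51. SCG5 (0.87), TAC3 (0.76), CPE (0.59) and SYT11 (0.57) rose too. Without day 5 in every arm 2 rose, and 3 without the NANOG shRNA array of day 5 or 6 or the control array of day 5, whereas 8 rose with the day as a block. SYT11 was not called in 6 of the 9 repeats and CPE in 7, with 0.23 and 0.35 without day 6 in every arm, and SCG5 was not called without day 5 in every arm or the NANOG shRNA array of day 6 (0.71).

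Metallothioneins are small cysteine-rich proteins that bind zinc and copper, and their genes are switched on by the metal-sensing factor MTF1 at metal response elements. They lie together on chromosome 16. Of 15 listed genes 7 were measured, 5 of them lower and none higher, with a median of -2.11. MT1G was at 10.03, 9.32 and 9.39 with NANOG shRNA, against 13.00, 12.99 and 12.85 in control cells. MT1H was at 9.60, 9.01 and 8.90 with NANOG shRNA, against 12.27, 12.49 and 12.22. MT1X was at 9.72, 9.62 and 10.99 with NANOG shRNA, against 13.24, 13.32 and 13.11. In each of the 3 genes every NANOG shRNA array lay at least 2-fold below every control array, and the differences were -3.37 ± 0.92, -3.16 ± 0.86 and -3.11 ± 0.62 (SE). MT1F (-2.11) and MT1M (-1.39) fell too. MT1E was at 9.76, 9.52 and 10.29 with NANOG shRNA, against 11.91, 11.98 and 11.93, and MT2A at 9.23, 8.93 and 9.71, against 10.89, 10.84 and 10.56, and neither was called (adjusted p = 0.0899 and 0.176). Both were called with the day as a block (adjusted p = 0.0156 and 0.0398) and in a fit of the 6 arrays alone. For MT1E a second passing probe gave 0.15.

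The metallothionein calls depended on which arrays were left out of the fit. The spread that all arms share in the fit is wide for these genes, and MT1G was at 13.01, 10.64 and 7.89 on days 4, 5 and 6 with OCT4 shRNA. Without day 5 in every arm none of the 7 was called, with MT1G at -3.22, MT1H at -3.00 and MT1X at -2.82, and without the NANOG shRNA array of day 5 3 were called, MT1G (-3.24) not among them. MT1F was not called in 7 of the 9 repeats (-2.17 to -1.97), and MT1M not without day 5 or 6 in every arm (-1.46 to -1.27). A second MT1H probe gave -0.19. The family also moved early: MT1X was at 12.75 on day 0 and 10.56 on day 1 with NANOG shRNA, against 13.23 and 12.85 in control cells. MT1G was at 8.92 on day 1 and 10.03 on day 4 with NANOG shRNA, against 11.06 and 13.00 in control cells, so it was higher on day 4 than on day 1 in both arms.

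The promoters of 2 metallothioneins that fell and of MT2A, whose call depended on the fit, are shown because these genes lie in 1 cluster and share a known element. The sequences are the 250 bases before the transcription start, from RefSeq (GRCh38.p14, plus strand), at chr16:56669564-56669813 (MT1H), chr16:56682220-56682469 (MT1X) and chr16:56608334-56608583 (MT2A). MT1G, MT1F and MT1M are named only. Capitals mark the core of the metal response element, TGCACNC or TGCGCNC, on either strand, so that a match to the other strand reads GNGTGCA or GNGCGCA.
MT1H: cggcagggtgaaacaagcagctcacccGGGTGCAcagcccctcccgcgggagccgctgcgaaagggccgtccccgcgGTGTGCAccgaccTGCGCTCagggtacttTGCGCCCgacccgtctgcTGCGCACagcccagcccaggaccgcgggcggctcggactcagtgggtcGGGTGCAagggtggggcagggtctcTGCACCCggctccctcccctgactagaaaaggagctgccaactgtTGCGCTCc
MT1X: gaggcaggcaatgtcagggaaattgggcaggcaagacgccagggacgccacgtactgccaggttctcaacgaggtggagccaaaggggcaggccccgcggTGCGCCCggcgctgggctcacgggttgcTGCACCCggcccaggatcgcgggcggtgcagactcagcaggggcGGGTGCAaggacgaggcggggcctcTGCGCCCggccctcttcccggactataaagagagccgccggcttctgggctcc
MT2A: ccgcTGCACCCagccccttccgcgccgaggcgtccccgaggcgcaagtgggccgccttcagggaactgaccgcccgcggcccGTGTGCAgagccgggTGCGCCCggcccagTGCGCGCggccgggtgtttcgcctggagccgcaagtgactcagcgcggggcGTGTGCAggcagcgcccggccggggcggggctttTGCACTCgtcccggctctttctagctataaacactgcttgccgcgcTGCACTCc
The MT1H window holds 8 matches, the MT1X window 4 and the MT2A window 7. Of 35116 promoter windows of the same length, 24.8% hold at least 1 match and 0.37% at least 4. A match describes letters only, and the call of MT2A, with 7 matches, depended on the fit.

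Cell cycle genes are grouped by phase. Of 21 measured G1 cyclins and E2F genes 5 rose and none fell, with a list median of 0.15. E2F2 (1.27), a factor that activates S phase genes, was at 8.81, 8.96 and 8.98 with NANOG shRNA, against 7.57, 7.79 and 7.58 in control cells. CCND1, cyclin D1, was at 11.91, 12.21 and 12.06 with NANOG shRNA, against 11.18, 11.20 and 11.13, a difference of 0.89. E2F5 (0.59), CCND2 (0.46) and CDK2 (0.43) completed the 5. E2F5 was not called without day 5 in every arm (0.56), CDK2 in 4 of the 9 repeats (0.33 to 0.45) and CCND2 in 6 (0.31 to 0.49). Thus 2 rose without day 5 in every arm, 3 without the NANOG shRNA array of day 5 or 6, and 1 fell without day 4 in every arm or the NANOG shRNA array of day 4.

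DNA replication genes gave 8 rises and 1 fall among 34 measured, with a median of 0.17. POLE, a replicative polymerase, was at 9.50, 9.83 and 9.88 with NANOG shRNA, against 8.82, 9.13 and 9.29 in control cells, a difference of 0.66. The list's median was 0.32 on day 4 and 0.05 on day 6, and its rises numbered 2 without day 5 and 5 without day 6 in every arm. They numbered 4 without the NANOG shRNA array of day 6 or the control array of day 4, and 5 without the control array of day 5. CDT1, a replication licensing factor, fell (-0.57), with -0.37 and no call without day 6 in every arm. Of 34 measured mitosis genes none rose and 3 fell, with a list median of -0.15, BUB1B (-0.58), KIF23 (-0.47) and TTK (-0.44). That is 8.82% of the list, near the 7.68% of all genes called lower. At most 1 mitosis gene was called in any of the 9 repeats, and 5 fell with the day as a block.

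Of 32 measured genes of amino acid stress and tRNA charging 8 rose and 2 fell, with a list median of 0.22. ATF5, a stress-induced transcription factor, was at 9.55, 9.42 and 10.00 with NANOG shRNA, against 8.21, 8.07 and 7.86 in control cells, a difference of 1.61. TRIB3, a pseudokinase induced by the same response, differed by 0.91, and VLDLR, a lipoprotein and reelin receptor, fell (-1.77). SLC7A5 (0.91) was not called without day 5 in every arm (0.89), and TARS1 (-0.71) was not called in 5 of the 9 repeats, with -0.30 without day 6 in every arm. The rises numbered 3 without day 5 in every arm and 5 without the control array of day 4, and the falls 1 without day 5 or 6 in every arm, the NANOG shRNA array of day 6 or the control array of day 5 or 6.

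Of 26 measured cholesterol and fatty acid synthesis genes 2 rose, the regulators SREBF1 (0.73) and SREBF2 (0.37), and none fell. The list's median was 0.44, the members lay between 0.07 and 0.73, and 18 of the 26 had groups that did not overlap. Over all genes, the NANOG shRNA arrays lay above all control arrays for 16.4% and below them for 16.7%. The count of rises was 17 with the day as a block and 12 in a fit of the 6 arrays alone, and ranged from 1 to 17 over the alternatives tried. SREBF2 was not called with the block (adjusted p = 0.051) or in 6 of the 9 repeats and was 0.56 without day 4 in every arm, so that 1 rose without day 5 or 6 in every arm or any array of those days. Hypoxia and glycolysis genes gave 8 falls and no rise among 30 measured, with a median of -0.18. NDRG1 was at 7.46, 7.89 and 7.68 with NANOG shRNA, against 9.10, 8.73 and 8.03 in control cells (-0.94), a gap that closed as control levels declined and that was -0.59 and not called without day 4 in every arm. HK1, hexokinase, differed by -0.82 (not called without day 5 in every arm, -0.72). With the day as a block 1 rose. The falls numbered 3 without day 4 or 5 in every arm, 4 without the NANOG shRNA array of day 6 or the control array of day 4, and 5 without the control array of day 5.

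Nuclear genes of the respiratory chain gave 10 small falls and no rise among 35 measured, with a median of -0.19. COX5A was at 12.93, 12.74 and 12.67 with NANOG shRNA, against 13.27, 13.33 and 13.21 in control cells (-0.49), and CYC1 differed by -0.46. Both calls were lost without day 5 in every arm (-0.44 and -0.41), where 1 of the 35 was called. The falls numbered 4 without day 6 in every arm, the NANOG shRNA array of day 6 or the control array of day 6, 5 when the NANOG shRNA array of day 5 was left out, and 6 without the control array of day 5.

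Among 22 measured p53 and apoptosis genes 4 fell and 1 rose, with a list median of -0.05. PMAIP1, the pro-apoptotic protein NOXA, was at 8.16, 7.82 and 7.36 with NANOG shRNA, against 8.99, 9.27 and 8.69 in control cells, a difference of -1.20. GDF15 (-1.05), RRM2B (-0.93) and MCL1 (-0.57) fell, but 1 gene fell without day 5 in every arm. The GDF15 call was lost without day 4 or 5 in every arm, the NANOG shRNA array of day 4 or the control array of day 4 or 5 (-0.87 to -0.57), and GDF15 was -1.75 without day 6 in every arm. The MCL1 call was lost without day 4 or 5 in every arm or the control array of day 4 (-0.46 to -0.38), and MCL1 was -0.87 without day 6 in every arm. RRM2B was -0.79 and not called without day 5 in every arm. TNFRSF10B rose (0.49), a call lost in 5 of the 9 repeats (0.34 to 0.54). Interferon genes gave 4 falls and 1 rise among 23, with a list median of 0.02. IFITM1 was at 11.06, 10.96 and 10.78 with NANOG shRNA, against 12.25, 12.25 and 11.97 in control cells (-1.22), and IFITM3 differed by -0.78. Both are membrane proteins that block viral entry and are abundant in pluripotent cells. IFITM2 (-0.40) and MX1 (-0.49) were also called lower, and IFI27 rose (at least 1.04-fold). The MX1 call was lost in 7 of the 9 repeats (-0.52 to -0.31), with -0.31 without day 6 in every arm, and the IFITM2 call without day 4 or 5 in every arm (-0.35 to -0.33). Without day 5 in every arm 2 fell, and IFI27 was not called without day 6 in every arm or either array of day 6 (0.35 to 0.41).

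Of 27 measured unfolded protein and heat shock genes (median 0.03) only HSPA4 was called (-0.45), and not without day 6 in every arm (-0.36). None rose here, though 1 did without day 6 in every arm or the NANOG shRNA array of day 5, and 2 without the control array of day 6. With the day as a block 2 rose and 2 fell. Of 23 measured metal transporters and iron genes (median -0.04) SLC39A6, a zinc importer, rose (0.62), and SLC39A10 (-0.53) and SLC30A9 (-0.36) fell. Neither fall was called without day 5 or 6 in every arm. A single fall was called without day 4 in every arm, the NANOG shRNA array of day 5 or the control array of day 4 or 6, and 2 rose with the day as a block.

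Chromatin genes gave 7 rises and 6 falls among 33 measured, with a list median of 0.06. SMARCA2 (BRM), an ATPase of SWI/SNF complexes, was at 6.99, 6.88 and 6.76 with NANOG shRNA, against 7.79, 7.77 and 8.47 in control cells, a difference of -1.13. CHD7, a remodeler needed in neural crest, differed by 0.97 and BMI1, a Polycomb protein, by 0.82. UHRF1 (0.97), which guides maintenance DNA methylation, was not called without day 5 in every arm (0.94) or the control array of day 4 (0.78). Rises numbered 4 and falls 2 without day 5 in every arm, and falls numbered 2 without the NANOG shRNA array of day 6 or the control array of day 4, and 3 without either array of day 5. Among 17 measured imprinted genes, DLK1 being counted with the Notch pathway, 6 rose and none fell, with a list median of 0.18. NNAT, neuronatin, was at 12.50, 12.49 and 12.53 with NANOG shRNA, against 11.43, 10.90 and 10.55 in control cells, a difference of 1.55, where the NANOG shRNA arm was steady and control declined. MEG3, at least 1.48-fold higher, was not called without day 5 or 6 in every arm or the NANOG shRNA array of day 6 (0.52 to 0.80). The rises numbered 2 without day 5 or 6 in every arm or the NANOG shRNA array of day 6, and 3 without day 4 in every arm.

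**Figure D5:**
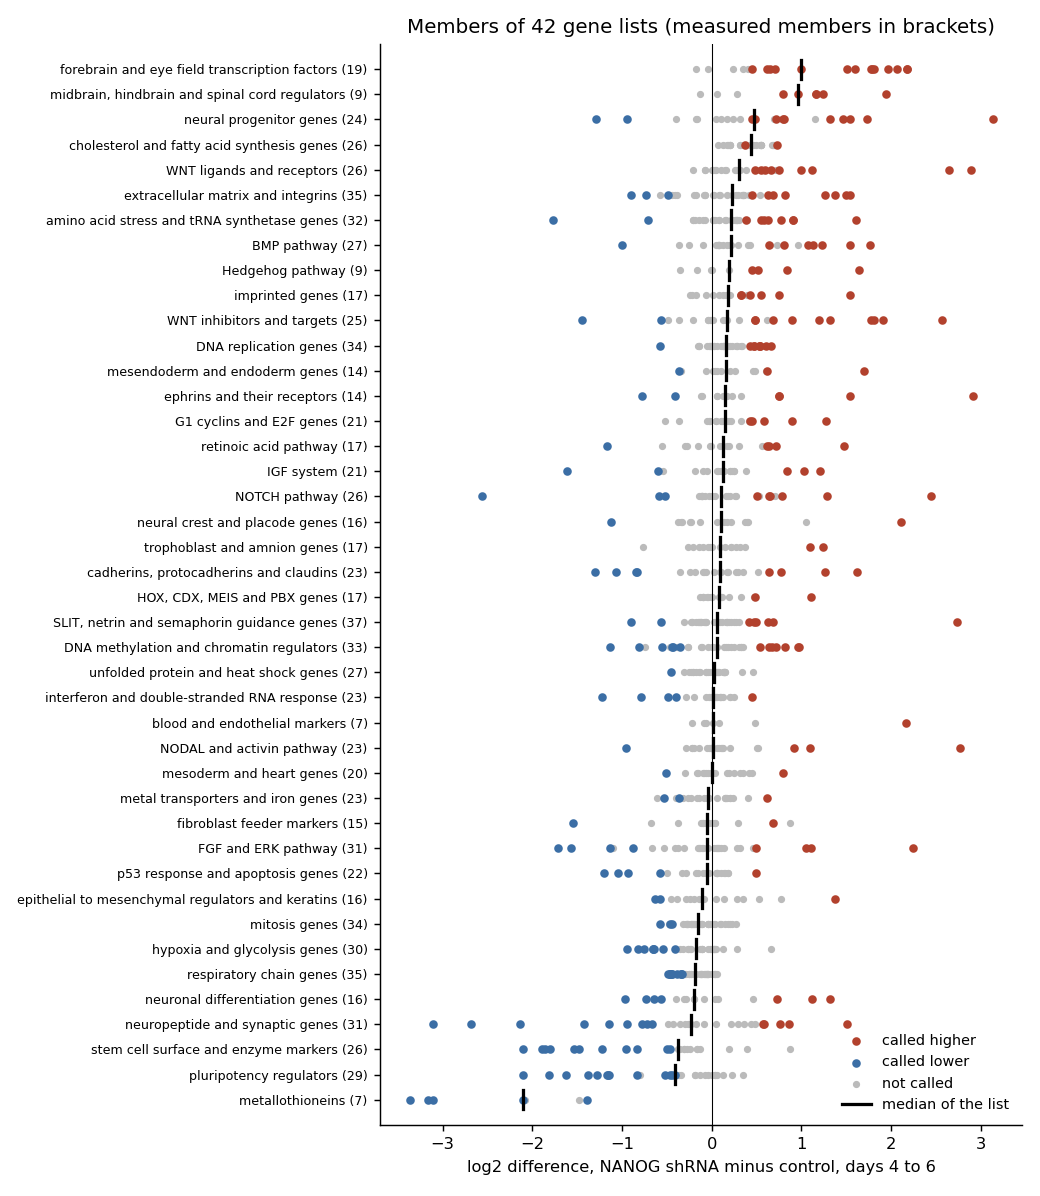
Log2 differences on days 4 to 6 (x axis) of each measured member of 42 gene lists (rows, ordered by median); red and blue points are called higher or lower, grey points not called and black bars medians. Forebrain and eye field factors lie furthest right by median (1.00) and metallothioneins furthest left (-2.11).

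Markers of cells that could be present besides stem cells were checked. In bulk RNA, fewer cells of a type and less RNA per cell cannot be told apart. Of 15 measured fibroblast feeder markers (median -0.05), FBLN1 rose (0.69) and COL1A1 fell (-1.54), which was not called without day 5 in every arm (-1.39). COL3A1, LUM, DCN and POSTN were below background on all 6 arrays. The list's summed linear level was 10230 to 11480 with NANOG shRNA and 9949 to 12030 in control cells. Without day 4 in every arm 2 rose and 2 fell, and none fell without day 5. Of 7 measured blood and endothelial markers (median 0.02) VWF rose, at 7.67, 9.70 and 9.23 with NANOG shRNA, against 6.55, 6.61 and 6.94 in control cells (2.16), with 2 of 3 control arrays above background, and 2 rose with the day as a block. PTPRC, which defines blood cells, was above background on 0 of 3 NANOG shRNA arrays and 1 of 3 control arrays. The endothelial markers PECAM1 and CDH5 had no probe that passed the filter. Linear levels of the 7 markers, VWF among them, summed to 1108 to 1829 with NANOG shRNA and 935 to 974 in control cells. The 17 trophoblast and amnion genes summed to 1923 to 2305 with NANOG shRNA and 1859 to 1947 in control cells, and 8 of them were below background on all 3 NANOG shRNA arrays and 11 on all 3 control arrays. Summed levels were 1959 to 2087 with NANOG shRNA and 1684 to 1812 in control cells for mesendoderm and endoderm genes, and 3791 to 4260 with NANOG shRNA and 3420 to 3811 in control cells for mesoderm and heart genes. The part of such cells in the results was not tested.

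Whether the late difference exceeded the early one was tested as the difference on days 4 to 6 minus that on days 0 and 1. It was called for 196 of 13411 genes (1.46%), 110 with a more positive late difference (0.82%) and 86 with a more negative one (0.641%), and for 437 genes with the day as a block. Without day 4, 5 or 6 in every arm 453, 22 and 133 genes were called, so the count turns on day 5. WLS had the largest rise (3.02 ± 0.65, SE). LMO1 (2.95), EPHA4 (2.85), SP5 (2.66) and FST (2.57) followed. On day 0 these 5 genes differed by -0.59 (WLS), 0.20 (LMO1), -0.05 (EPHA4), 0.02 (SP5) and 0.07 (FST). The largest falls were CFAP95 (-2.48), UCA1 (-2.01), PLAAT3 (-1.92), SYT4 (-1.92) and IDO1 (-1.88).

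NANOG was not among the calls of that test (-0.63), having differed by -1.11 on day 0 and -1.84 on day 1. MT1X (-1.73) and GAL (-1.82) were not called either, with differences of -2.29 and -2.20 on day 1. In these 3 genes most of the gap of days 4 to 6 was present by day 1.

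Set against OCT4 shRNA on the same days, NANOG shRNA cells differed in 5623 of 13411 genes (41.9%), 2840 higher (21.2%) and 2783 lower (20.8%), with 3705 called without day 5 in every arm. The comparison with control and this one share the NANOG shRNA arrays. The largest falls with NANOG shRNA were genes of amnion, trophoblast and mesoderm that were bright with OCT4 shRNA. HAND1, a transcription factor of heart and extraembryonic tissue, was at 6.28, 6.70 and 6.75 with NANOG shRNA, against 14.05, 14.13 and 13.86 with OCT4 shRNA. GABRP and TRIM55, below background with NANOG shRNA, were at least 89.1-fold and at least 35.5-fold lower, and ISL1 (-5.41) and ANXA1 (-5.31) followed. HAND1, ISL1 and TRIM55 were below background on all 3 control arrays. The largest positive differences from OCT4 shRNA were CYP26A1 (4.93), POU5F1 (4.62), ZIC2 (4.42), FEZ1 (4.39) and SHISA2 (3.83). POU5F1 is the gene that the OCT4 shRNA targets, so its place here follows from the design. Against control, POU5F1 differed by -1.17, CYP26A1 by 1.48, SHISA2 by 2.10 and ZIC2 by 0.78 (not called). FEZ1 differed from control by 1.25, with 0.32 to 1.27 over its 4 passing probes. ZIC2, a zinc finger factor of the neural plate, was at 13.80, 13.91 and 13.69 with NANOG shRNA, against 10.64, 9.07 and 8.46 with OCT4 shRNA. NANOG itself did not differ beyond its spread, at 6.91, 6.60 and 6.48 with NANOG shRNA, against 6.88, 6.51 and 6.50 with OCT4 shRNA (0.03, adjusted p = 0.925, limma). Both arms lay near the background level of 6.58, where a difference in how far the transcript fell cannot be seen.

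Set against SOX2 shRNA, 2496 genes were called (18.6%), 1338 higher (9.98%) and 1158 lower (8.63%) with NANOG shRNA, with 1149 without day 5 and 1652 without day 6 in every arm. SOX21, a repressor related to SOX2, was at 11.56, 11.77 and 11.45 with NANOG shRNA, against 6.48, 6.58 and 6.85 with SOX2 shRNA, a difference of 4.96. DLK1 (4.26), PAMR1 (4.10) and FEZ1 (3.93) followed, and LMO1, below background with SOX2 shRNA, was at least 11.1-fold higher. Against control, SOX21 differed by 1.16 with NANOG shRNA and was not called, but was in a fit of the 6 arrays alone. The largest falls with NANOG shRNA were GAL (-3.52), SYT4 (at least 7.15-fold lower), UCA1 (-3.03), MT1G (-2.83) and MT1H (-2.77). GAL was at 8.42, 8.04 and 7.68 with NANOG shRNA, against 11.78, 11.39 and 11.54 with SOX2 shRNA, and it stood at 8.24, 7.99 and 8.16 with OCT4 shRNA.

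The forebrain and eye field factors were also set side by side in the other arms. Their median difference was 1.57 between NANOG shRNA and OCT4 shRNA and 0.74 between NANOG shRNA and SOX2 shRNA. The filter on dim probes bears on these medians too. PAX6 was below background with OCT4 shRNA and with SOX2 shRNA, and was at least 5.1-fold higher with NANOG shRNA than with either. WLS, by contrast, was lower with NANOG shRNA than with OCT4 shRNA (-1.76) and higher than with SOX2 shRNA (1.57).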

How the data were processed

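Total RNA from 40 samples was hybridised to 1-colour Illumina bead arrays. The deposited table holds probe intensities that are already on a common scale between arrays: the column medians of the 28 arrays used lay between 135.619 and 135.686. In each of these columns at least 98.4% of the values also occur in the first column. The normalization software is not given in the sources used here. The arrays are those of days 0 to 6 in the 4 H1 arms. The 8 columns of H9 cells with OCT4 shRNA were not used. The deposited NANOG shRNA column of the last day was treated as a score of unknown scale and left out, since its median was 6.80 and its highest value 3171, and 80 columns of a second table that match no single label were not used.

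Intensities were background corrected with normexp (offset 50) and put on a log2 scale. A probe was kept when it lay above 145.356 intensity units on at least 3 of 28 arrays, and the brightest kept probe stood for its gene. That level is the median of 457 olfactory receptor probes plus their median absolute deviation, scaled to the 99th percentile of a normal distribution. Of 47323 probes, 30113 named 1 gene, 8 named several and 17202 none, and 30074 symbols were updated through RefSeq while 39 kept the platform's name. Several probes were kept for 3693 genes, and the values of further probes are given for only some of them. Arm by time window means were fitted to 13411 genes with limma 3.58.1 (R 4.3.3), with Benjamini-Hochberg adjustment over all genes. Single genes were also compared with an exact permutation test over arrays.

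The labels number the arrays by day, so same-numbered arrays pair the arms. Deviations of same-day arrays from their group means correlated at 0.139, 0.0891 and 0.179 on days 4, 5 and 6, against -0.146 to 0.0449 for other days. The day as a replicate block was an alternative.

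Genes were named by a rule: NANOG, POU5F1 and SOX2, the 15 largest rises and falls called on the same side each day, up to 4 called members of each of 42 gene lists, the 5 largest rises and falls of each other comparison, and defining markers of cell types. A further 41 genes, among them MT2A, SOX4, KREMEN2 and TARS1, were named after their values were seen. The members and lists were chosen with earlier results of these data known. Promoter sequences came from RefSeq (GRCh38.p14).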

Additional observations from a re-analysis of the deposited data

Results flagged for a closer look

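Among the genes named in the report, 55 had a difference between NANOG shRNA and control on days 4 to 6 that differed from the one on days 0 and 1 (limma, adjusted p under 0.05 over 13411 genes, of which 1.46% were called). Genes were named partly for large differences on days 4 to 6 and partly as the largest calls of this same comparison. The 55 are therefore not to be set against the 1.46%. Each value is the late difference minus the early one, on the log2 scale. This comparison rests on 3 late and 2 early days of 1 time course per arm, and it lost most of its calls without day 5 in every arm.

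Of regulators of transcription, the difference became more positive for LMO1 (2.95), SP5 (2.66), FEZF1 (2.30), SIX3 (2.25), GLI3 (2.02), SOX9 (1.96), HESX1 (1.90), LHX5 (1.85), OTX2 (1.54), LHX2 (1.50) and E2F2 (0.83). It became more negative for DPPA2 (-1.40) and HEY2 (-1.75). Of genes of WNT signalling, the difference became more positive for WLS (3.02), TMEM88 (2.45), FZD2 (2.36), SHISA2 (2.30), FRZB (1.91), TNFRSF19 (1.74) and FZD3 (0.92). It became more negative for KREMEN2 (-1.09). Of genes of other growth factor pathways, the difference became more positive for FST (2.57), DUSP6 (1.79), RGMA (1.20), SMAD7 (1.02) and CCKBR (0.91). It became more negative for FGFRL1 (-1.11) and FGF2 (-1.81). Of guidance, adhesion and matrix genes, the difference became more positive for EPHA4 (2.85), VWF (1.98), SLIT2 (1.96), GPC3 (1.36), COL4A6 (1.28), EPHB1 (1.12), FBLN1 (0.84) and PLXNB1 (0.71). It became more negative for EPHA1 (-0.86), CNTN1 (-0.96) and CLDN7 (-1.32). Of genes of neurons and vesicles, the difference became more positive for MAPK10 (2.19), NNAT (1.67), MAP2 (1.39) and RTN1 (1.06). It became more negative for SYP (-1.06) and SYT4 (-1.92). Of the remaining genes, the difference became more positive for PAMR1 (2.46). It became more negative for VLDLR (-1.28), RASL11B (-1.35), PMAIP1 (-1.41), PIM2 (-1.77), RAB20 (-1.88), IDO1 (-1.88), PLAAT3 (-1.92), UCA1 (-2.01) and CFAP95 (-2.48).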

How the results depend on the processing

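The count of 2068 genes called between NANOG shRNA and control moved by over 1.5 times to 811 without day 5 in every arm, 1248 without day 6 in every arm and 1325 without the NANOG shRNA array of day 6. Array weights gave 4761 calls, with a convergence warning from the fit. Leaving out 1 day or 1 array gave 811 to 2005 calls. Over the days left out, calls against OCT4 shRNA ranged from 3705 to 5273 and against SOX2 shRNA from 1149 to 2072, and those of late against early days from 22 to 453. With the day as a replicate block, the count of late against early calls was 437 in place of 196, and no other count over all genes moved by over 1.5 times; it also changed counts of gene lists, the most for cholesterol synthesis genes, with 17 rises in place of 2. Over these settings the log2 difference of NANOG was -2.59 with an offset of 16 and -1.69 without background correction. Of 230 genes named, 202 were called, 107 of them under each of 23 settings and 95 not under at least 1. Of the 28 not called, 14 were called under some setting, and no called difference changed sign. The cause was not tested for these changes. The number of arrays limits the precision, and levels near 6.58 give only bounds.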
